A study of Macaca mulatta with 2 samples.

Results

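The genes described here are 53 genes of the interferon response and of antigen processing, chosen by symbol: interferon receptors, STAT and IRF factors, RNA sensors, interferon-stimulated genes, and genes that load peptides onto MHC class I or switch MHC genes on. Of the 53, 51 were listed under those symbols in a table of 33618 genes, and 43 of these were measured with at least 1 CPM in either library, among 18050 such genes in all. CPM is a gene's read number scaled to a library of 1000000 reads, after adjustment by edgeR's TMM method. GBP1 and CIITA were not listed under those symbols and are described separately. The RNA came from the prefrontal cortex of 2 infant rhesus macaques (Macaca mulatta), both labelled as 28 days old. The control library (PFC CON 1) was from an animal of the control group. The sevoflurane library (PFC SEV 1) was from an animal given the inhaled anesthetic at about 2.5 to 3% for 4 h on each of about postnatal days 7, 14 and 28. By the study's methods the cortex was taken directly after the last exposure, though the exposure days given there differ from those in the labels. How the control animal was handled is not given in the sources used here. The design lists 3 animals per group, of both sexes by the labels, and the others are not analysed here. With 1 animal per group analysed here there were no replicates, so no p-value is given, and every difference is one between these 2 libraries and not between the conditions.

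Interferons are secreted proteins that cells release after sensing foreign or misplaced nucleic acid. Type I interferons act through the IFNAR1 and IFNAR2 receptor pair and type II interferon through IFNGR1 and IFNGR2. The receptors activate JAK kinases, which phosphorylate STAT proteins, and these join IRF9 in a complex that switches on the interferon-stimulated genes. Their products cut or edit viral RNA, block translation, tag proteins with ISG15 and raise peptide display on MHC class I. In the brain, neurons, astrocytes, microglia and endothelial cells all carry interferon receptors, and microglia hold most of the MHC class II and its invariant chain.

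Reads assigned to genes numbered 16960880 (control) and 9839105 (sevoflurane). Each gene has a log2 ratio of sevoflurane over control, computed with a prior count of 2, and an exact 95% Clopper-Pearson interval of that ratio from the reads alone. No molecular identifiers are named in the sources used here, and the intervals cover counting error only, without the variation between animals. Values given as fold are ratios of CPM without the prior count, and so differ from the log2 ratio in genes with few reads. A gene is called higher or lower here when that interval lies wholly above or below 0, and 2-fold higher or lower when the log2 ratio is in addition at least 1 in size. A count of 0 allows up to 3 reads, a floor equal to 0.179 CPM (control) and 0.302 CPM (sevoflurane). Neuron markers were abundant in both libraries. SLC17A7, a vesicular glutamate transporter of cortical excitatory neurons, had 16767 control and 9073 sevoflurane reads (998 and 914 CPM). Y-linked genes, 7 in all, had 3 control and 4308 sevoflurane reads, and by the methods the only male, 1 animal, was among those anesthetised. Animal, exposure and these reads therefore differed together and cannot be told apart.

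The interferon and antigen processing genes did not move as a block between the 2 libraries. Only IFI44L and MX1 were at least 2-fold higher in the sevoflurane library, and only OAS1 and OAS2 at least 2-fold lower. These are 2 and 2 of the 43 measured members, or 4.65% in each direction, against 7.56% of all measured genes that were 2-fold higher and 5.47% that were 2-fold lower. Without the 2-fold condition, 9 of the 43 members (20.9%) were higher, against 28.4% of all measured genes, and 14 (32.6%) were lower, against 28.1%. The intervals of the other 20 included equal expression. The median log2 ratio of the members was -0.03, with quartiles of -0.33 and 0.45, and that of all measured genes was -0.0048, with quartiles of -0.34 and 0.37. In their shares and in their spread, the members thus lay near the background of all genes. In bulk tissue such as this, fewer cells of a type and less RNA per cell cannot be told apart. OAS1, OAS2, OAS3, EIF2AK2 and ADAR, grouped here as double-stranded RNA enzymes, were all lower. The RNA sensors form a separate group here, and 1 of those 3 was higher and none was lower. Of the 4 measured antigen processing genes, 3 were higher and none was lower. The IFIT and IFI groups held both higher and lower genes.

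**Figure D1:**
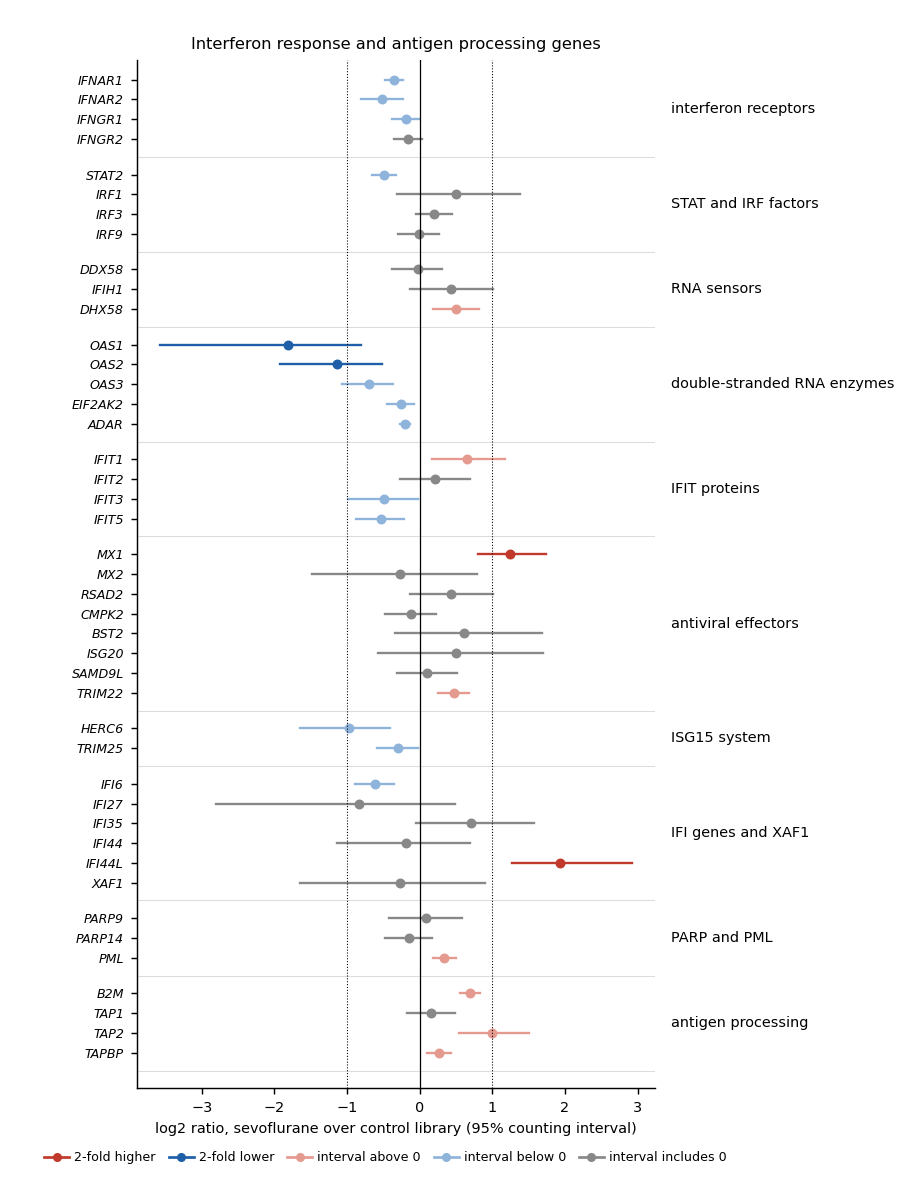
Log2 ratio of the sevoflurane over the control library for the 43 measured members, ordered by role. Points are ratios, bars are exact 95% counting intervals from 1 library per group, and dotted lines mark 2-fold. The double-stranded RNA enzymes all sit left of 0, and IFI44L and MX1 lie beyond the 2-fold line on the right.

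Differences past 2-fold were less frequent among genes with more reads, in the members as in the whole table. Of the 21 members with a mean under 10 CPM, 2 were 2-fold higher and 2 were 2-fold lower (9.52% each), where 15.2% and 9.86% of all 7248 such genes were. Of the 22 members with a mean of at least 10 CPM, 0 were 2-fold higher and 0 were 2-fold lower, where 2.44% and 2.53% of the 10802 such genes were. All of the members past 2-fold were therefore genes of low read number.

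**Figure D2:**
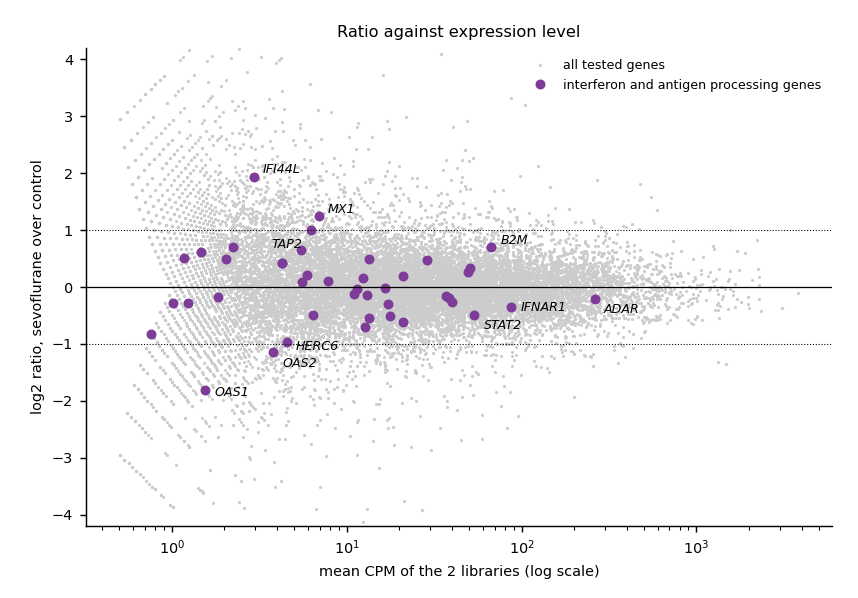
Log2 ratio of sevoflurane over control (vertical) against the mean CPM of both libraries (horizontal, log scale). Grey points are all 18050 measured genes, of which 44 lie beyond the vertical axis, and purple points are the 43 members. The members lie within the grey cloud, and those past the dotted 2-fold lines are at its low-expression end.

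The 4 interferon receptor subunits all had ratios below 0, and 3 of them were lower beyond counting error, by modest amounts. Of all 18050 measured genes, 9088 had ratios below 0 and 28.1% were lower beyond counting error. IFNAR2, the high-affinity subunit of the type I receptor, had 349 control and 144 sevoflurane reads, or 20.8 and 14.5 CPM. Its log2 ratio of -0.51 (95% interval -0.81 to -0.23) was the lowest of the 4. IFNAR1, its partner, had 1652 and 762 reads (98.3 and 76.7 CPM, log2 ratio -0.36, interval -0.48 to -0.23). Both chains of the type I receptor were thus lower in the sevoflurane library. IFNGR1, the ligand-binding chain of the interferon gamma receptor, had 688 and 356 reads (40.9 and 35.8 CPM) and a log2 ratio of -0.19, and the upper limit of its interval only just missed 0. IFNGR2, its signalling partner, had 652 and 346 reads (38.8 and 34.8 CPM, log2 ratio -0.15, interval -0.35 to 0.04). The call for IFNGR1 was lost with any other scaling.

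Downstream of the receptors, STAT2 and IRF9, which act in the complex that drives interferon-stimulated genes, differed from each other. STAT2 had 1055 control and 444 sevoflurane reads (62.8 and 44.7 CPM, log2 ratio -0.49, interval -0.65 to -0.33). STAT2 was thus lower. IRF9, its DNA-binding partner, had 279 and 163 reads (16.6 and 16.4 CPM, log2 ratio -0.02, interval -0.30 to 0.27), which is equal within counting error of that width. The kinases bound to the receptors were not lower beyond counting error. JAK1 had 2402 and 1606 reads (143 and 162 CPM, log2 ratio 0.18, interval 0.09 to 0.27), and TYK2 had 840 and 512 reads (50.0 and 51.6 CPM, interval -0.12 to 0.20).

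None of the measured IRF members differed beyond counting error. IRF3, which cells hold ready before infection and which turns on interferon beta, had 328 and 222 reads (19.5 and 22.4 CPM, log2 ratio 0.19, interval -0.06 to 0.45). IRF1, an early target of interferon gamma, had 28 and 24 reads, which left a wide interval of -0.31 to 1.38 around a log2 ratio of 0.50. IRF7, the amplifier of the type I response, had 11 and 8 reads, under 1 CPM in both libraries. Among IRF genes outside the list, IRF2 (186 and 142 reads, log2 ratio 0.37) and IRF5 (73 and 66 reads, 0.60) were higher, and IRF8, a factor of microglia, was at 0.19 with an interval that included 0.

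The RNA sensors were measured in both libraries, and 1 of the 3 was higher. DHX58, which encodes the regulatory sensor LGP2, had 186 control and 156 sevoflurane reads (11.1 and 15.7 CPM, log2 ratio 0.50, interval 0.19 to 0.82). DDX58, which encodes RIG-I, had 195 and 113 reads (11.6 and 11.4 CPM, log2 ratio -0.03, interval -0.38 to 0.31). IFIH1, which encodes MDA5, had 61 and 49 reads (3.63 and 4.93 CPM, log2 ratio 0.43, interval -0.13 to 1.01). The adaptor MAVS, through which RIG-I and MDA5 signal, was higher by a small amount (1226 and 844 reads, log2 ratio 0.22, interval 0.09 to 0.35), and the kinase TBK1 was at 0.01 (479 and 286 reads, interval -0.20 to 0.23). Among the 14 measured genes of nucleic acid sensing outside the list, 5 were higher and 1, TRAF3 (100 and 36 reads, -0.69), was lower. Of all measured genes, 28.4% were higher and 28.1% lower. TLR9 (11 and 31 reads, 2.02), an endosomal DNA receptor, and TREX1 (23 and 31 reads, 1.11), a DNA-degrading exonuclease, were 2-fold higher. So were 7.56% of all measured genes and 15.2% of those with a mean under 10 CPM.

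The 5 measured genes grouped here as double-stranded RNA enzymes, a group without the RNA sensors, were all lower, where 28.1% of all measured genes were. OAS1, OAS2 and OAS3 make the 2-5A messenger of the antiviral response. OAS1 had 42 control and 6 sevoflurane reads, or 2.50 and 0.604 CPM, which is 4.14-fold lower (log2 ratio -1.81, interval -3.57 to -0.81). OAS2 had 89 and 23 reads (5.30 and 2.32 CPM), 2.29-fold lower (log2 ratio -1.14, interval -1.92 to -0.52). OAS3 had 266 and 96 reads (15.8 and 9.67 CPM, log2 ratio -0.70, interval -1.06 to -0.37). The 3 synthetases thus all had fewer reads for their depth in the sevoflurane library. OAS1 passed the level of 1 CPM through the control library alone. OASL, a related protein without synthetase activity, had 2 and 1 reads and was not measured.

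The other members of this group were lower by much less. EIF2AK2 encodes PKR, the kinase that stops translation on binding double-stranded RNA. It had 729 control and 359 sevoflurane reads (43.4 and 36.2 CPM, log2 ratio -0.26, interval -0.45 to -0.08). ADAR, which edits adenosine in double-stranded RNA and is used in neurons without any infection, had the most reads of any member, 4735 and 2432 (282 and 245 CPM, log2 ratio -0.20, interval -0.27 to -0.13). Its interval was the narrowest of the list.

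The IFIT genes, whose products bind viral RNA ends and block translation, moved in opposite directions. IFIT1 was higher, with 71 control and 67 sevoflurane reads (4.23 and 6.75 CPM, log2 ratio 0.66, interval 0.17 to 1.18). IFIT5 was lower, with 269 and 109 reads (16.0 and 11.0 CPM, log2 ratio -0.54, interval -0.88 to -0.22). IFIT3, which stabilises IFIT1, was lower as well, with 127 and 53 reads (7.56 and 5.34 CPM, log2 ratio -0.49, interval -0.99 to -0.03). IFIT2 had 92 and 63 reads (5.47 and 6.34 CPM, log2 ratio 0.21, interval -0.27 to 0.69). How reads that match more than 1 gene were counted is not given in the sources used here, so ratios of close relatives such as the IFIT, OAS and MX genes are uncertain to that extent.

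Among the 8 measured antiviral effectors, MX1 and TRIM22 were higher and none was lower, where 28.4% of all measured genes were higher and 28.1% lower. MX1, a dynamin-like GTPase that traps viral nucleoprotein, had 68 control and 97 sevoflurane reads, or 4.05 and 9.77 CPM, which is 2.41-fold higher (log2 ratio 1.24, interval 0.81 to 1.74). MX2, its paralog at the nuclear pore, had 23 and 11 reads (1.37 and 1.11 CPM, log2 ratio -0.27, interval -1.49 to 0.79). The intervals of the MX pair missed each other by a narrow margin, and that of MX2 was wide. TRIM22, a ubiquitin ligase, had 404 and 331 reads (log2 ratio 0.47, interval 0.26 to 0.68).

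The remaining antiviral effectors had intervals that included equal expression. RSAD2, which encodes viperin, had 61 and 49 reads (log2 ratio 0.43), and CMPK2, the nucleotide kinase beside it that supplies its substrate, had 192 and 104 reads (log2 ratio -0.12, interval -0.48 to 0.23). BST2, which encodes the tether of budding virus, had 19 and 18 reads (0.62), and ISG20, a 3' exonuclease, had 16 and 14 (0.50). SAMD9L had 126 and 80 reads (log2 ratio 0.10, interval -0.32 to 0.52), while SAMD9 had 2 and 0 reads, at or under the floor in both libraries.

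In the system that attaches and removes the ubiquitin-like ISG15, only 2 of the 5 members were measured. Both, HERC6 and TRIM25, were lower, where 28.1% of all measured genes were. The modifier itself was scarce. ISG15 had 7 control reads and 1 sevoflurane read, under 1 CPM in both, and the interval of its log2 ratio ran from -7.54 to 0.91. USP18, the protease that removes ISG15 and restrains the type I receptor, had 10 reads and 0. The upper limit of its log2 ratio was -0.41, or 1.32-fold lower. HERC6, an E3 ligase of the ISG15-ligase family, had 102 and 30 reads (6.07 and 3.02 CPM, log2 ratio -0.97, interval -1.65 to -0.41), which left it just short of the 2-fold condition. HERC5, the main ISG15 ligase in humans, had only 5 and 6 reads. TRIM25, which ubiquitinates RIG-I, had 318 and 152 reads (18.9 and 15.3 CPM, log2 ratio -0.30, interval -0.59 to -0.02). That call was lost with library totals, with control reads drawn at random to equal depth and with a 99% interval. Outside the list, the E1 enzyme UBA7 was higher (274 and 317 reads, log2 ratio 0.96, interval 0.73 to 1.21) and the E2 enzyme UBE2L6 was at -0.03 (81 and 47 reads). The parts of this conjugation pathway therefore lay on both sides of 0.

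The IFI genes held the highest ratio of the whole list beside some of the lower ones. IFI44L had 19 control and 47 sevoflurane reads, or 1.13 and 4.73 CPM, which is 4.19-fold higher (log2 ratio 1.93, interval 1.27 to 2.92). IFI44, its paralog and neighbour, had 33 and 17 reads (1.96 and 1.71 CPM, log2 ratio -0.18, interval -1.13 to 0.69). The intervals of this pair did not overlap. IFI6, a membrane protein that blocks cell death and flavivirus replication, was lower, with 427 and 164 reads (25.4 and 16.5 CPM, log2 ratio -0.62, interval -0.89 to -0.36). IFI35 had 28 reads in each library (log2 ratio 0.71, interval -0.05 to 1.57). IFI27 had 17 and 5 reads (-0.83) and the apoptosis factor XAF1 had 19 and 9 (-0.28), with intervals that included 0. Of the 6 measured genes of this group, IFI44L was higher, IFI6 was lower and the intervals of the other 4 included 0. Over all measured genes the shares were 28.4% higher and 28.1% lower.

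PML, the scaffold of nuclear bodies, was higher, with 747 control and 559 sevoflurane reads (44.5 and 56.3 CPM, log2 ratio 0.34, interval 0.18 to 0.50). PARP9 had 91 and 57 reads (log2 ratio 0.08, interval -0.42 to 0.58), and PARP14, another ADP-ribosyltransferase of the same pathway, had 232 and 124 (-0.14, interval -0.47 to 0.18). The guanylate binding proteins are GTPases induced most by interferon gamma. GBP2 had 4 and 5 reads and was not measured. GBP1, matched through its RefSeq gene ID to a row without a symbol, had 22 and 25 reads (1.31 and 2.52 CPM, log2 ratio 0.87, interval 0.06 to 1.84).

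The antigen processing genes stood on the higher side. B2M encodes the light chain that every MHC class I molecule needs, and it had 861 control and 825 sevoflurane reads. Scaled for depth these were 51.2 and 83.1 CPM, or 1.62-fold higher (log2 ratio 0.70, interval 0.56 to 0.84). TAP2, one chain of the peptide transporter of the endoplasmic reticulum, had 69 and 83 reads, or 4.11 and 8.36 CPM (2.04-fold higher, interval of the log2 ratio 0.55 to 1.51). With the prior count its log2 ratio was 0.9993, so it fell just short of the 2-fold condition. TAP1, the other chain, had 197 and 130 reads (11.7 and 13.1 CPM, log2 ratio 0.16, interval -0.17 to 0.49). TAPBP, which encodes tapasin and bridges TAP to MHC class I, was higher, with 756 and 537 reads (45.0 and 54.1 CPM, log2 ratio 0.26, interval 0.10 to 0.43). NLRC5, the transactivator of MHC class I genes, had 4 and 0 reads, below what the floor can resolve. CIITA, the transactivator of MHC class II genes, matched through its RefSeq gene ID, had 5 and 8 reads (interval -0.36 to 3.39).

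The MHC genes themselves split in both directions. Of the 5 measured class I genes, MAMU-B was 2-fold higher, with 60 and 88 reads (3.57 and 8.86 CPM, log2 ratio 1.28, interval 0.82 to 1.81). MAMU-AG was 2-fold lower (80 and 22 reads, -1.05, interval -1.86 to -0.41), and MAMU-A was lower (231 and 78 reads, -0.80, interval -1.20 to -0.43). MAMU-A3 (170 and 120 reads) and MAMU-E (355 and 179 reads) had intervals that included 0. Summed over the 7 listed class I genes, the libraries held 53.7 and 49.5 CPM, a total that was not higher where B2M was. In class II, the invariant chain CD74 had 58 control and 190 sevoflurane reads (3.45 and 19.1 CPM), 5.54-fold higher (log2 ratio 2.42, interval 2.04 to 2.92). MAMU-DRA had 2 and 19 reads, with an interval of 1.96 to 7.15. In the opposite direction, MAMU-DRB1 had 43 and 4 reads (log2 ratio -2.29, interval -4.61 to -1.21) and MAMU-DMB had 41 and 6 (-1.78, interval -3.54 to -0.77). MAMU-DQB1 had 14 and 0 reads, under 1 CPM in both libraries, with an upper limit of -0.97, or 1.96-fold lower. MAMU-DRA had at least 1 CPM in the sevoflurane library only, and MAMU-DRB1 and MAMU-DMB in the control library only, so each was measured through the library in which it was high. Macaque MHC genes are many, closely alike and different from animal to animal, and how well the reads of each animal matched the reference copies was not tested.

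**Figure D3:**
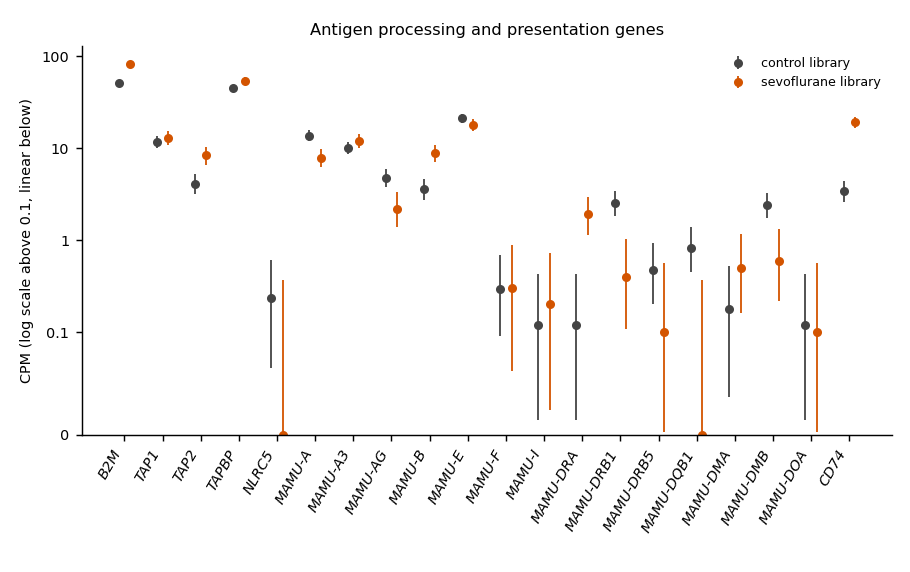
CPM of the listed antigen processing and MHC genes with at least 1 read in either library, on a log scale above 0.1 and a linear scale below. Grey points are the control library, orange points the sevoflurane library, and bars are exact 95% Poisson intervals of each count. B2M, TAP2, MAMU-B, MAMU-DRA and CD74 are higher in orange, and MAMU-A, MAMU-AG, MAMU-DRB1 and MAMU-DMB are lower.

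Peptide loading genes outside the list were close to equal. Of the 10 measured, none was past 2-fold, 1 was higher and 3 were lower, with a median log2 ratio of -0.03. The shares over all measured genes were 28.4% higher and 28.1% lower. PSMB10, a subunit of the immunoproteasome, was the lowest of them (205 and 84 reads, -0.52, interval -0.91 to -0.16), whereas PSMB8 (7 and 7 reads) and PSMB9 (9 and 5 reads) were too low to be measured. ERAP1, the peptidase that trims peptides for MHC class I, had 214 and 128 reads (0.02, interval -0.31 to 0.34).

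Of 6 interferon genes looked up by symbol, 5 were listed, and these were hardly seen in either library. Other interferon genes are not covered here. IFNB1, IFNG, IFNK and IFNL1 had 0 reads in both, which allows levels up to the floor, and IFNE had 5 and 8 reads. The interferon-induced chemokines CXCL10 and CXCL11 also had 0 reads in both libraries, and CXCL9 had 0 and 1. Of the 38 measured interferon-stimulated genes outside the list, 11 were higher, 6 of them 2-fold, and 5 were lower, 0 of them 2-fold, with a median log2 ratio of 0.02. The 11 were 28.9% of the list, against 28.4% of all measured genes. The 6 were 15.8%, where 7.56% of all measured genes and 15.2% of those under 10 CPM were 2-fold higher. They were SLFN12 (4 and 16 reads, 2.18), TRIM34 (4 and 10 reads, 1.58), IFITM1, PARP12, PLSCR1 and LGALS3BP, and SLFN12 and TRIM34 had at least 1 CPM in the sevoflurane library only. IFITM1, which hinders virus entry at the cell surface, had 39 and 68 reads (2.32 and 6.85 CPM, interval of the log2 ratio 0.97 to 2.17). PARP12 had 26 and 42 reads (1.37), PLSCR1 33 and 49 (1.27) and LGALS3BP 51 and 73 (1.24). Over all 86 measured pathway genes outside the list, 13 (15.1%) were 2-fold higher and 3 (3.49%) were 2-fold lower, and the median was 0.02. The shares were 7.56% and 5.47% over all measured genes, and 15.2% and 9.86% over those under 10 CPM. Of the 13, 6 had at least 1 CPM in the sevoflurane library only, and of the 3, 2 in the control library only. SOCS3, a feedback inhibitor of JAK kinases, was among the higher ones (12 and 21 reads, 1.39, interval 0.48 to 2.72), as was IFNLR1 of the interferon lambda receptor (2 and 11 reads, interval 1.02 to 6.43), while SOCS1 had 19 and 5 reads (-0.97, interval -2.94 to 0.30).

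**Figure D4:**
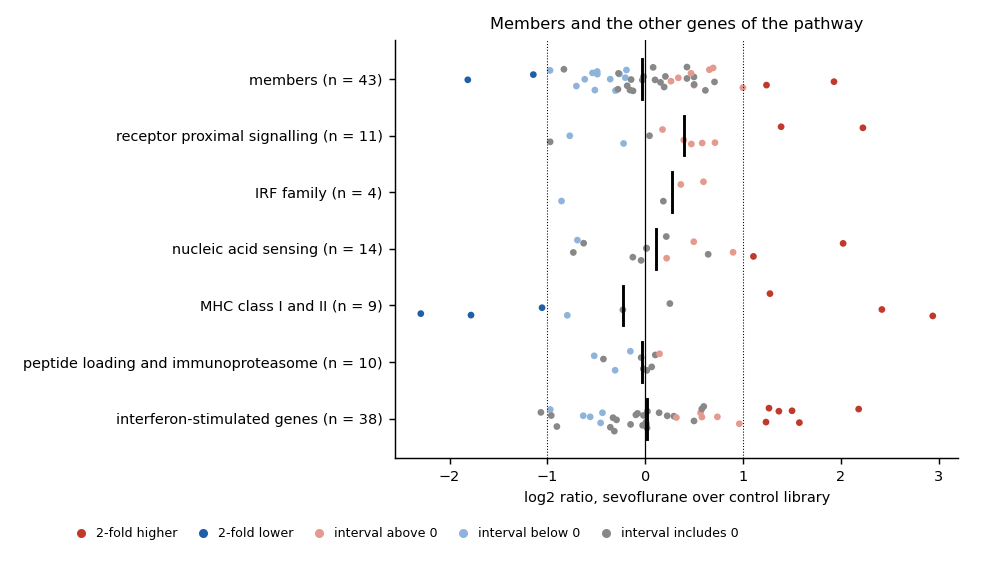
Log2 ratios of sevoflurane over control for the 43 measured members and the measured genes of 6 other lists of the same pathway, 1 point per gene, coloured by the counting interval. Black bars are list medians and dotted lines mark 2-fold. The medians lie between -0.23 and 0.40, and the MHC list has the widest spread.

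Genes that lie side by side did not share a direction as a rule. By gene order in the RefSeq annotation of assembly T2T-MMU8v2.0, IFI44 and IFI44L are neighbours and their log2 ratios were 2.11 apart, and those of the neighbours MX1 and MX2 were 1.51 apart. With control reads drawn at random to equal depth, MX1 was at 1.18 and MX2 at 0.51, so the direction of MX2 was not stable. IFIT1 and IFIT5 were 1.19 apart. IL10RB, which encodes a receptor chain shared by interferon lambda, lies between IFNAR1 and IFNAR2 and was higher (85 and 76 reads, log2 ratio 0.58, interval 0.13 to 1.06) where both of these were lower. TRIM22 and TRIM5 (0.11 apart) and IFNGR2 and IFNAR1 (0.20 apart) were close, and OAS1 and OAS3 were both lower, 1.11 apart.

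Of the 51 listed members, 39 had at least 1 CPM in both libraries, OAS1, IFI27 and XAF1 in the control library only, ISG20 in the sevoflurane library only, and 8 in neither. Passing through 1 library alone favours a ratio away from 0 in that library's direction. The 8 were IRF7, OASL, SAMD9, ISG15, USP18, HERC5, GBP2 and NLRC5. Just inside the level was IFI27 (17 and 5 reads), and just outside it was IRF7. For the 20 measured members whose interval included equal expression, the limits ran from -2.80 (IFI27) to 1.69 (ISG20), and in 10 of them both limits lay within 2-fold. In the other 10 the interval reached past 2-fold in at least 1 direction.

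Markers of other cells that carry interferon-stimulated and MHC genes also differed between the libraries. The 13 microglia markers summed to 260 control and 288 sevoflurane CPM. Of these markers 5 were higher and 1 lower, where 28.4% and 28.1% of all measured genes were. C1QB was highest (175 and 266 reads, log2 ratio 1.35) and P2RY12 lowest (917 and 377 reads, -0.52). Among blood myeloid markers, S100A8 had 0 and 11 reads, S100A9 had 0 and 15, CSF3R had 1 and 12 and CD14 had 40 and 57, and the 5 listed genes summed to 3.21 and 10.5 CPM. Red blood cell genes summed to 24.9 and 80.8 CPM. Among T and NK cell markers, CD2 and NKG7 had 0 reads in both libraries and CD3D had 0 and 1, while CD3E had 25 and 23, CD8A had 22 and 17, and PTPRC, a gene of all white blood cells, was higher (76 and 64 reads, log2 ratio 0.50). The 9 genes summed to 39.1 and 29.2 CPM, most of it CD4 (531 and 182 reads), which macrophages and microglia also express. Endothelial markers summed to 261 and 265 CPM. The 5 markers of meningeal fibroblasts and choroid plexus summed to 203 and 347 CPM. COL1A1 (1307 and 1708 reads, log2 ratio 1.14) and TTR (2 and 31 reads, 3.61) were 2-fold higher, and COL1A2 (0.60) was higher. DCN (528 and 325 reads, 0.06) and LUM (66 and 36 reads, -0.11) had intervals that included 0. Astrocyte markers were lower in sum (6147 and 4264 CPM), with 5 of the 7 lower and SLC1A3 higher (log2 ratio 0.27). Neuron markers were lower in sum too (8026 and 6802 CPM), with 6 of the 8 lower and RBFOX3 higher (0.83). The 6 oligodendrocyte markers were all lower and summed to 4056 and 1994 CPM. The part of these cell types in the ratios of B2M, CD74, the MHC genes, MX1, IFI44L and the OAS genes was not tested.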

How the data were processed

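RNA sequencing of prefrontal cortex from 1 control and 1 sevoflurane-treated rhesus macaque was analysed. The deposited table holds raw gene counts made by the authors, in 1 column for each of the 2 libraries, matched by the sample titles. The submitters' processing notes name HISAT2 2.0.4, and the counting tool, genome build and annotation are not given in the sources used here. TMM factors (0.991 control, 1.01 sevoflurane) were computed with edgeR 4.0.16 in R 4.3.3 after leaving out genes under 1 CPM in both libraries (18050 remained), and log2 ratios used a prior count of 2. Intervals were computed in Python 3.11.15 (scipy 1.17.1, pandas 2.3.3, numpy 2.4.6) and plots with matplotlib 3.10.9. With 1 library per group, no test between groups was possible. The procedure was tested on simulated data. Members and gene lists were chosen with earlier results of these data known, so no list is independent evidence. Every member is accounted for. Receptors, STAT and IRF factors, antigen processing genes and members past 2-fold are given in full, and other lists by counts and up to 6 genes past 2-fold. DESeq2 1.42.0 size factors, library totals, upper quartile scaling, other filters, a prior count of 0.5, a sampled-down control library, a 99% interval and other fold thresholds were alternatives. Promoter and protein sequences were not analysed here.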

Additional observations from a re-analysis of the deposited data

How the results depend on the processing

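The ratios of single members recomputed under other scalings, the smaller prior count and the sampled-down control library stayed within their counting intervals. The factors of every scaling lay between 0.991 and 1.01, so the other scalings could hardly have moved a ratio outside its interval. The sampled-down control was a single random draw. MX2, which was not called, turned from -0.27 to 0.51 with the control library sampled down. IRF9 (to 0.07), PARP14 (to 0.09) and SAMD9L (to -0.04), also not called, changed sign in that draw as well. TAP2 passed 2-fold under every other scaling, with a prior count of 0.5 and with the control library sampled down, which made 3 members 2-fold higher. IFNGR1 was no longer lower under the other scalings, the sampled-down control or a 99% interval, TRIM25 was lost with library totals, the sampled-down control and the 99% interval, and IFIT3 with the 99% interval, so that 11 to 13 members were lower. With a mean of at least 5 CPM, 29 members were measured, of which 1 was 2-fold higher and 0 were 2-fold lower. Of the other pathway genes 3 were then 2-fold higher and 0 lower, since the low genes were left out. Of all 12989 genes at that level, 414 were 2-fold higher and 394 lower. At 1.5-fold, 5 members were higher and 5 lower, and 18 other pathway genes were higher and 9 lower. Of all 18050 measured genes, 2604 were higher and 2141 lower at 1.5-fold, and 352 and 221 at 4-fold. At 4-fold, 0 and 0 members and 5 and 1 other pathway genes were higher and lower, by log2 ratios with the prior count. IFI44L and OAS1 were just past 4-fold without it. The members' median was -0.10 with every gene of at least 1 read, USP18 then being 2-fold lower, and it turned to 0.079 with the control library sampled down, the cause of which was not tested. Its sign is therefore not interpreted. GBP1 and CIITA, added by gene ID after seeing the data, made 10 of 44 members higher and left the other counts as they were. No paired analysis was possible because only 1 library per group was analysed, so none could be left out either, and the planned promoter motif search was not run because no promoter table was at hand. The 9839105 reads of the sevoflurane library limit ratios of genes near 1 CPM.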
